A study of Mus musculus with 12 samples.

Results

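The telomeric ends of 12 mouse autosomes (chromosomes 3, 5, 6, 7, 8, 9, 10, 11, 13, 15, 16 and 17) were examined for copy number in liver tumors by array-based comparative genomic hybridization (aCGH), in which tumor DNA and reference DNA carry different dyes and compete for the same probes. A probe was taken when it started within 10 Mb of the last probe end of its chromosome on the array, which gave 12 of the 262 windows of 10 Mb into which the autosomes and chromosome X were cut, and 2757 of the 42404 probes. All coordinates are those of the mm8 build. By the labels and the study's methods, every array set a tumor (Cy5, red) against non-tumor liver of the same mouse (Cy3, green). The autosomal median of each array was set to 0. A log2 ratio of 0 thus means no difference to that median. It is equal copy number of tumor and liver only where the median itself is unchanged. All mice, the source of every reference liver included, were Mdr2-KO mice of the FVB strain. They lack the phospholipid transporter Mdr2 (Abcb4) of the bile canaliculus, and liver tumors develop in their chronically inflamed livers. The post-PHx group held 6 tumors (PHx1M, PHx2F, PHx3M, PHx4M, PHx5M and PHx6F; M male, F female) of mice killed at 9 months of age after 70% partial hepatectomy (PHx) at either 3 or 6 months. The spontaneous group held 6 tumors (Spon1M, Spon2M, Spon3F, Spon4F, Spon5F and Spon6F) of untreated mice killed at 13 to 14 months of age. The groups thus differ in age as well as in surgery, and these cannot be told apart. No wild-type mouse and no pair of normal livers was analysed here. A tumor is a bulk sample, and fewer cells carrying a change and a smaller change per cell cannot be told apart.

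Mouse autosomes are acrocentric: the centromere lies next to one end, where the coordinates begin, and the long arm runs to the telomere at the other. A gain or loss of a whole chromosome moves both ends equally. A break in the arm followed by loss or gain of the outer piece changes the telomeric end and leaves the part next to the centromere at its old copy number, while gains that stay near the centromere leave the telomeric end untouched. The probes lie in unique sequence and do not measure the telomere repeats themselves.

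The 12 windows lie at chr3:151273470-159870361, chr5:142362076-151918350, chr6:139559752-149512282, chr7:135188979-145131345, chr8:122211526-132061985, chr9:114216457-123957580, chr10:119762469-129759311, chr11:112480026-121652625, chr13:111075372-120604804, chr15:93419536-103393065, chr16:88169818-98114503 and chr17:85092289-95077557. Of the member probes, 88.0% carried a gene name in the array's annotation against 85.8% over the autosomes, and together they named 1375 genes, from 41 in the window of chromosome 17 to 210 in that of chromosome 11. The windows held from 91 probes (chromosome 17) to 365 probes (chromosome 11), and 11 of the 12 held more probes per Mb than the first 10 Mb of the same chromosome. The telomeric part of chromosome 7 holds the imprinted Igf2 and Cdkn1c genes and the Ccnd1, Fgf3 and Fgf15 genes, that of chromosome 9 holds Ctnnb1 and Tgfbr2, and that of chromosome 17 holds Msh6 and Epas1.

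Between 2685 and 2754 member probes were usable per array after spots with an outlier flag were dropped. The median signal was 3.96 to 13.2 times background in green and 3.34 to 9.94 times in red, and between 97.9% and 99.9% of the member probes were well above background in both channels. The arrays lay on 3 slides of 4 arrays: PHx1M to PHx4M on the first, PHx5M, PHx6F, Spon5F and Spon6F on the second, and Spon1M to Spon4F on the third. Only the second slide held both groups. Spon1M, Spon2M and Spon3F stood apart from the other arrays by single probes far from 0, which are described after the levels. Levels, deleted regions and the gene count against 0 are also given without these arrays. Single windows, distances from 0 and named genes are given only with them.

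The telomeric ends of the post-PHx tumors were close to the autosomal median of their arrays. The mean over the 12 windows was log2 0.011 (PHx1M), 0.0051 (PHx2F), 0.0040 (PHx3M), 0.0019 (PHx4M), 0.028 (PHx5M) and -0.0094 (PHx6F). Across these 6 tumors the level was 0.0068 ± 0.012 (SD, n = 6), which did not pass an exact two-sided sign-flip test against 0 (p = 0.25, smallest possible p = 0.03125). Relative to that median, no tumor of this group moved its 12 ends together by more than 2%: the highest, PHx5M, stood at 1.02-fold and the lowest, PHx6F, at 0.994-fold.

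In the spontaneous tumors the means were more scattered. They were -0.034 in Spon1M, 0.031 in Spon2M, -0.095 in Spon3F, 0.024 in Spon4F, 0.018 in Spon5F and 0.031 in Spon6F, and averaged -0.0045 ± 0.051 (SD, n = 6; exact sign-flip p = 0.88). Spon3F and Spon1M were the low ones. The other 4 lay above the post-PHx median of 0.0045 and above every post-PHx tumor but PHx5M (0.028), which Spon2M and Spon6F also passed. Without Spon3F the mean changed sign, to 0.014, and without Spon1M, Spon2M and Spon3F it was 0.024. The groups overlapped and differed by 0.011 (exact permutation p = 0.69 over 924 splits of the tumors). Without Spon1M, Spon2M and Spon3F the difference turned to -0.017 (exact permutation p = 0.071). Taking the median instead of the mean of each window's probes brought Spon3F from -0.095 to 0.0022 and Spon1M from -0.034 to -0.0012. Spon2M, the highest by the mean, went from 0.031 to -0.011. The levels of these tumors thus came from a minority of their probes. With the median the difference between the groups turned to -0.0095.

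Single windows lay nearer 0 in the post-PHx tumors than in the spontaneous tumors. Of the 72 windows of the post-PHx tumors (12 in each), 61 (84.7%) lay within 0.05 of 0 and 1 lay 0.1 or more from it, chromosome 17 of PHx6F at -0.10. Of the 72 windows of the spontaneous tumors, 31 (43.1%) lay within 0.05 and 20 lay 0.1 or more from 0. Of these 20, 7 were in Spon2M, 5 in Spon3F, 4 in Spon4F, 2 in Spon1M and 1 each in Spon5F and Spon6F. Over all autosomal windows of 10 Mb, 76.1% of those in post-PHx tumors and 43.0% of those in spontaneous tumors lay within 0.05 of 0, so the spontaneous ends had about the same share near 0 as the autosomes as a whole. The mean distance of a telomeric window from 0 ran from 0.014 (PHx4M) through a median of 0.024 to 0.038 (PHx5M) in the post-PHx tumors. In the spontaneous tumors it ran from 0.041 (Spon6F) through a median of 0.081 to 0.12 (Spon2M), and the groups did not overlap. Over all autosomal windows the same distance ran from 0.043 (PHx1M) to 0.075 (PHx3M) and from 0.059 (Spon6F) to 0.16 (Spon2M), where the groups overlapped. They also overlapped at the telomeric ends of the other 7 autosomes. There it ran from 0.023 (PHx1M) to 0.11 (PHx4M) and from 0.082 (Spon6F) to 0.26 (Spon2M). These counts and distances were chosen after the values had been seen and carry no test.

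**Figure D1:**
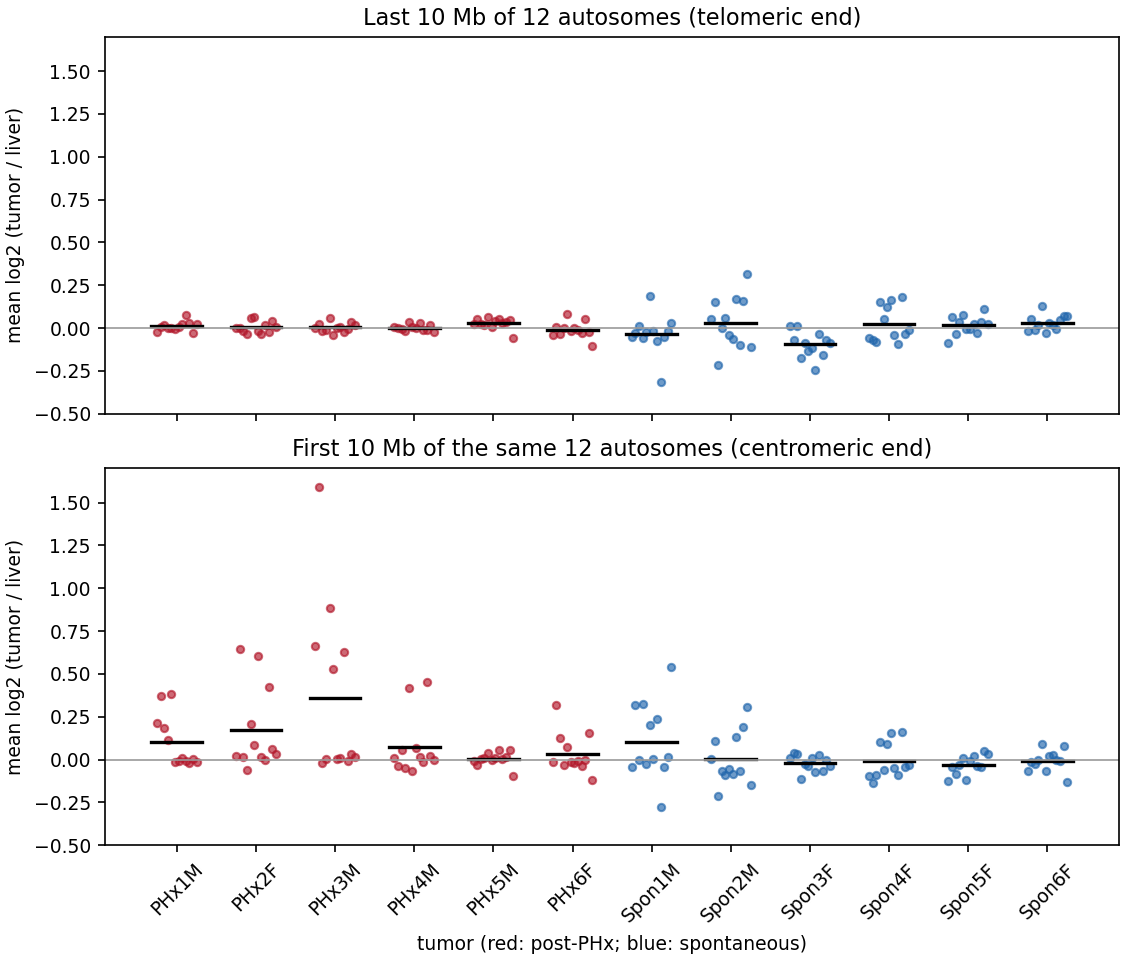
Mean log2 tumor/liver ratio of the last 10 Mb (top) and the first 10 Mb (bottom) of the 12 autosomes in each tumor; each point is 1 chromosome, ordered by chromosome number from left to right, and the black bar is the mean of the 12. The telomeric points of the 6 post-PHx tumors lie between -0.10 and 0.083, while their centromeric points reach 1.59; the telomeric points of the spontaneous tumors reach from -0.32 to 0.32.

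The farthest window of each tumor showed which chromosome ends departed most. Among post-PHx tumors it was chromosome 13 in PHx1M (0.075), chromosome 9 in PHx2F (0.066), chromosome 8 in PHx3M (0.056), PHx4M (0.033) and PHx5M (0.062), and chromosome 17 in PHx6F (-0.10). Among spontaneous tumors it was chromosome 13 in Spon1M (-0.32), chromosome 16 in Spon2M (0.32), chromosome 11 in Spon3F (-0.24), chromosome 15 in Spon4F (0.18), chromosome 16 in Spon5F (0.11) and chromosome 8 in Spon6F (0.13). No window of either group reached 0.4 from 0, below the shift that a gain of 1 copy in every cell of a diploid tumor gives.

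Most of the larger shifts at the ends of the spontaneous tumors ran along the whole chromosome. In Spon4F the ends of chromosomes 7, 9, 10 and 15 were at 0.15, 0.13, 0.16 and 0.18, and the remainder of the same chromosomes was at 0.14, 0.11, 0.16 and 0.16. In Spon2M the ends of chromosomes 5, 11, 15 and 16 were at 0.15, 0.17, 0.16 and 0.32 beside 0.18, 0.16, 0.18 and 0.29 for the remainder, and that of chromosome 6 was at -0.21 beside -0.23. In Spon1M the end of chromosome 13 was at -0.32 beside -0.23, and that of chromosome 9 at 0.19 beside 0.30. Over the 12 chromosomes of a tumor, the end and the remainder of the chromosome correlated with r of 0.92 in Spon1M, 0.97 in Spon2M, 0.62 in Spon3F, 0.99 in Spon4F, 0.89 in Spon5F and 0.95 in Spon6F. Among post-PHx tumors r was 0.95 in PHx5M and between -0.0029 and 0.42 in the other 5. These correlations describe chromosomes of 1 array, which share its dye and spatial effects, and have no p-value.

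**Figure D2:**
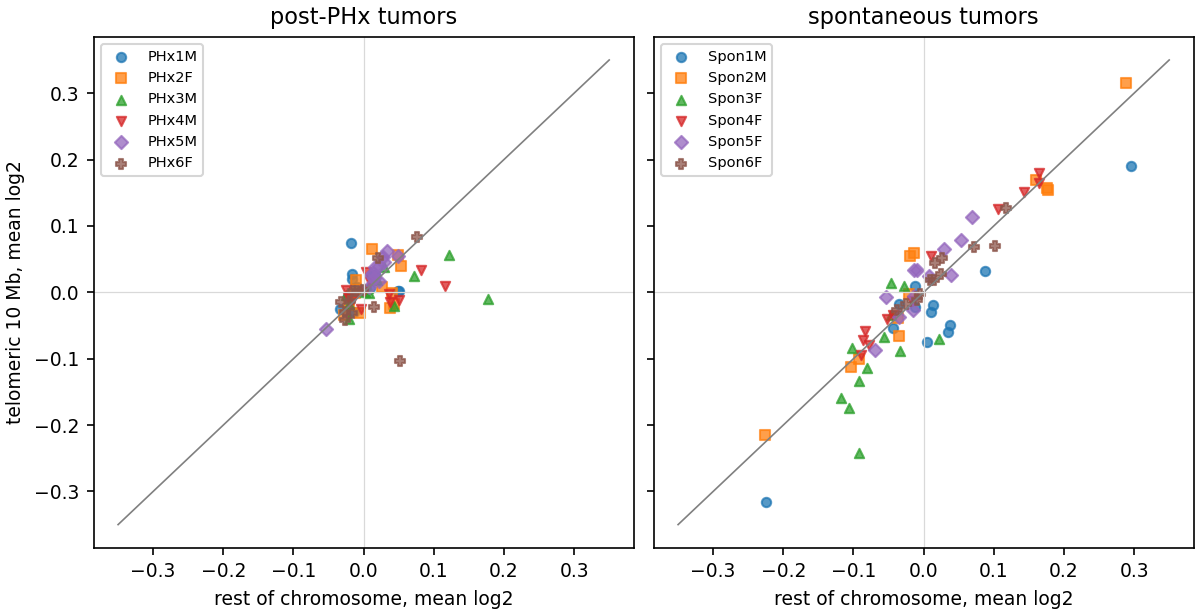
Mean log2 ratio of the telomeric 10 Mb against that of the remainder of the same chromosome, 1 point per chromosome and tumor, with post-PHx tumors on the left and spontaneous tumors on the right; the diagonal marks equal values. The spontaneous points follow the diagonal from about -0.3 to 0.3, with the chromosome 11 end of Spon3F (-0.24 beside -0.09) below it; the post-PHx points gather near 0.

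Set against the remainder of its chromosome, the telomeric end did not pass a test in either group. The telomeric minus remaining level ran from -0.030 (PHx3M) through a median of -0.010 to 0.012 (PHx5M) in post-PHx tumors, with a mean of -0.0081 ± 0.017 (SD, n = 6; exact sign-flip p = 0.34). It ran from -0.047 (Spon1M) through a median of 0.0077 to 0.018 (Spon5F) in spontaneous tumors, with a mean of -0.0054 ± 0.027 (SD, n = 6; exact sign-flip p = 0.62). The groups overlapped and differed by -0.0027 (exact permutation p = 0.84). The sign of this difference turned when any 1 of PHx3M, Spon2M, Spon4F or Spon5F was left out, and without Spon1M the spontaneous mean was 0.0030. Without Spon1M, Spon2M and Spon3F the spontaneous mean was 0.012 and the difference between the groups -0.020 (exact permutation p = 0.11).

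Compared end with end, the large ratios of the post-PHx tumors lay at the centromeric end of these chromosomes. Ratios above 0 also lay between the ends. In PHx3M all of chromosome 7 but its telomeric end stood at 0.18, with the first 10 Mb at 0.0035 and the telomeric end at -0.011. For chromosome 3 of PHx4M these values were 0.12, 0.011 and 0.0090. In PHx3M the first 10 Mb of chromosome 5 stood at 1.59, of chromosome 8 at 0.89, of chromosome 3 at 0.66, of chromosome 13 at 0.63 and of chromosome 9 at 0.53, and the telomeric ends of these 5 chromosomes lay between -0.040 and 0.056. In PHx2F chromosomes 5, 10 and 15 began at 0.65, 0.61 and 0.42 and ended at -0.00066, -0.017 and -0.024. In PHx4M chromosomes 8 and 15 began at 0.42 and 0.45 and ended at 0.033 and -0.012. Of the 72 windows, 10 centromeric windows of post-PHx tumors were at 0.4 or more and 0 telomeric windows were. In the spontaneous tumors 1 centromeric window passed 0.4 (chromosome 17 of Spon1M, 0.54, with its telomeric end at 0.032) and 0 telomeric windows did.

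The telomeric minus centromeric level of the post-PHx tumors was -0.36 in PHx3M, -0.17 in PHx2F, -0.090 in PHx1M, -0.070 in PHx4M, -0.045 in PHx6F and 0.023 in PHx5M. It was below 0 in 5 of the 6, with a mean of -0.12 ± 0.13 (SD), and did not pass the exact sign-flip test (n = 6, p = 0.0625). Without PHx3M the mean was -0.070. In the spontaneous tumors it was -0.14 in Spon1M, 0.029 in Spon2M, -0.076 in Spon3F, 0.030 in Spon4F, 0.049 in Spon5F and 0.039 in Spon6F, with a mean of -0.011 ± 0.077 (SD, n = 6; exact sign-flip p = 0.78), which changed sign without Spon1M (0.014) or Spon3F (0.0018). The groups differed by -0.11 (exact permutation p = 0.095). The difference crossed 0.05 when PHx5M (-0.13, p = 0.032, exact permutation) or Spon1M (-0.13, p = 0.041, exact permutation) was left out, and was -0.058 without PHx3M (p = 0.21, exact permutation). Without Spon1M, Spon2M and Spon3F it was -0.16 (p = 0.060, exact permutation). On the slide that held both groups it was -0.055 with 2 tumors a group, where the exact permutation test cannot go below p = 0.333. The 11 exact tests of levels and called regions were adjusted together by the Benjamini-Hochberg method, and the lowest adjusted p was 0.52.

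At the telomeric ends of the other 7 autosomes, 5 of the 42 windows of post-PHx tumors lay 0.1 or more from 0, up to 0.62 at the end of chromosome 2 in PHx4M and 0.40 there in PHx3M. In spontaneous tumors 22 of 42 did, down to -0.48 at the end of chromosome 14 in Spon5F. The 12 chromosomes were chosen with earlier results of these arrays known, so this contrast is given without a test.

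Along the last 20 Mb the levels were as follows. Averaged over the 12 chromosomes, the outermost 1 Mb ran from -0.015 through a median of -0.0011 to 0.065 in the post-PHx tumors, and the highest was PHx1M. Over the spontaneous tumors it ran from -0.076 through 0.013 to 0.037. Just inside the 10 Mb limit the medians were 0.0067 (post-PHx) and 0.027 (spontaneous), and in the next 1 Mb outside it they were -0.0083 and 0.0070. Of the 116 bins of 1 Mb with at least 3 probes in the 12 windows, the number at 0.2 or more from 0 was 0 in PHx2F, PHx3M and PHx5M, 1 in PHx4M, 2 in PHx6F and 6 in PHx1M. It was 18 in Spon1M, 33 in Spon2M, 20 in Spon3F, 4 in Spon4F, 2 in Spon5F and 5 in Spon6F. In the windows the share of bins this far from 0 was 5.17% in PHx1M, 15.5% in Spon1M and 28.4% in Spon2M. Over all 2056 bins it was 5.74%, 29.7% and 39.2% in the same tumors. Spon3F alone had a larger share in the windows than over all bins, 17.2% against 11.6%. These shares carry no test. PHx1M had the most such bins in the windows among post-PHx tumors. It also had the dimmest array, at 3.96 times background in green and 3.34 in red. The part of signal in its count was not tested.

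**Figure D3:**
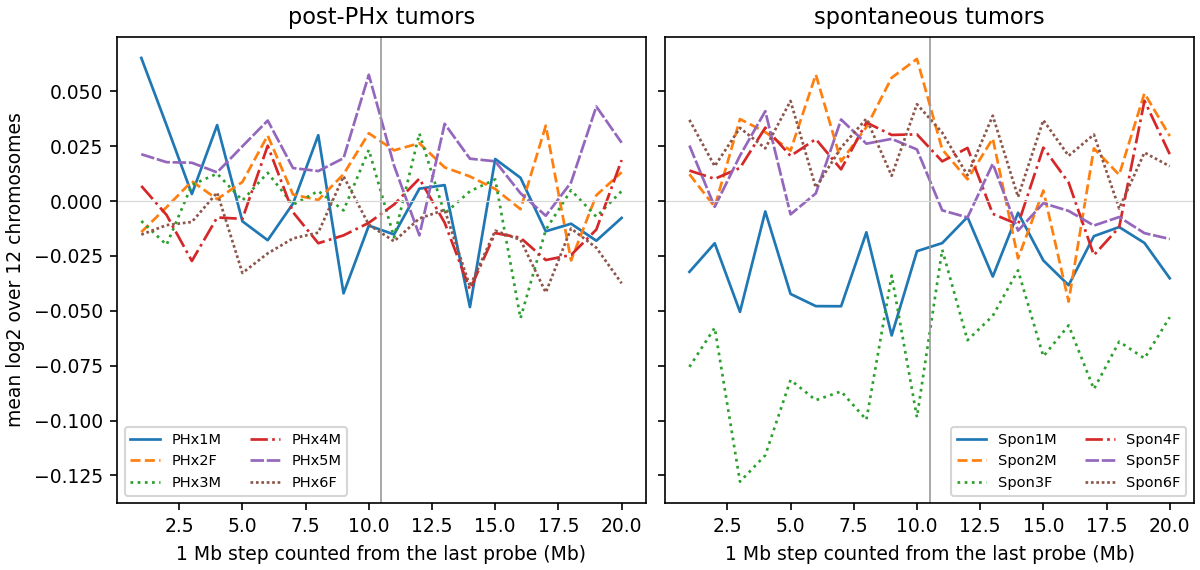
Mean log2 ratio over the 12 chromosomes in steps of 1 Mb counted from the last probe, 1 line per tumor, with post-PHx tumors on the left and spontaneous tumors on the right; the vertical line marks the 10 Mb limit. All lines stay within 0.13 of 0; Spon3F and Spon1M run below the other spontaneous tumors at most distances.

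In limma's test over all 262 windows of the autosomes and chromosome X, 0 of the 12 telomeric windows passed a Benjamini-Hochberg adjusted p of 0.05 in post-PHx tumors against 0, in spontaneous tumors against 0 or between the groups, and neither did any other window (0% of the 262 called in each). At an unadjusted p under 0.05, 0 of 12 passed in post-PHx tumors (background 5.34%), 1 of 12 in spontaneous tumors (background 18.7%) and 0 of 12 between the groups (background 5.34%). The 1 was chromosome 13, the window that holds Il6st, a receptor chain shared by the interleukin 6 family, and Map3k1 and Fgf10. It ran from -0.32 (Spon1M) through a median of -0.064 to -0.0031 (Spon6F) in spontaneous tumors and from -0.030 through 0.0045 to 0.075 in post-PHx tumors. All 6 spontaneous tumors were below 0 there, as they were over the remainder of the chromosome (-0.23 through a median of -0.068 to -0.0052), and the groups overlapped. Its difference between groups, 0.11 (SE 0.049), was the largest of the 12 and had an unadjusted limma p of 0.051 and an adjusted p of 0.82. In the post-PHx tumors the end of chromosome 8 was above 0 in all 6, from 0.0013 (PHx1M) through a median of 0.056 to 0.083 (PHx6F), with an unadjusted limma p of 0.091 and an adjusted p of 0.91. The remainder of chromosome 8 was above 0 in the same 6 tumors, from 0.033 through 0.063 to 0.12.

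The limma test took 1 spread per window or gene from both groups together. An interval or p-value of 1 group thus also reflects the scatter of the other. At the end of chromosome 8 the SE was 0.027 for either group, beside SDs of 0.028 (post-PHx) and 0.078 (spontaneous). At the end of chromosome 13 the SE was 0.035 and the SDs were 0.039 and 0.11. With that shared spread the intervals set what could have been missed. Over the 12 windows the 95% intervals of the post-PHx mean lay between -0.082 and 0.11, those of the spontaneous mean between -0.17 and 0.15, and those of the difference between -0.17 and 0.21, which is 0.888-fold to 1.16-fold. A change in 1 tumor alone is not what this test measures.

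Short regions were sought with a caller patterned on the ADM-2 method (score of 6 or more, at least 2 probes, mean log2 of 0.4 or more from 0). A change with a mean nearer 0 than 0.4 could not be called. The 6 post-PHx tumors had 0 amplified and 0 deleted regions in the 12 telomeric windows. Over all autosomal windows of these tumors 4% held an amplified region and 0% a deleted one, and their 72 centromeric windows held 13 with an amplified region. Among spontaneous tumors 2 of 72 telomeric windows held an amplified region (2.78%, background 4.54%), both in Spon2M. A deleted region was held by 9 of 72 (12.5%, background 8.54%), of which 8 were in Spon3F and 1 in Spon1M. Spon4F, Spon5F and Spon6F had none of either kind. The number of windows with an amplified region (difference in mean -0.33, exact permutation p = 1) or a deleted region (-1.5, exact permutation p = 0.45; -0.20 without Spon3F, and 0 without Spon1M, Spon2M and Spon3F) did not pass a test between the groups.

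The called telomeric regions were short. There were 23, of 2 to 8 probes and 4.80 to 237 kb, and 15 of them rested on 2 probes. With at least 5 probes required, 3 were left, all in Spon3F. In each of the 3, far probes stood among probes near 0. The longest, chr5:147403971-147641282 (8 probes, mean -0.62), spans Rpo1-3, a subunit of RNA polymerase, and the homeobox genes Gsh1, Pdx1 and Cdx2 of the ParaHox cluster, and reaches the neighboring Flt3, a receptor of blood cell precursors. In Spon3F 1 probe of Rpo1-3 (-1.16), that of Gsh1 (-1.66) and that of Flt3 (-1.37) were low, and the other 5 lay between -0.33 and 0.076, with Cdx2 at -0.26 and Pdx1 at 0.076. The same 8 probes averaged -0.29 in Spon1M and 0.26 in Spon2M. The second region, chr7:145078885-145131345 (5 probes, -0.92), lies at the very end of the chromosome 7 probes, with its nearest probe 0.048 kb from the last probe end. Its mean rested on Tpcn2, an ion channel of lysosomes (-2.89), and on 1 of the 2 probes of Mrgprd, a receptor of the Mas-related family (-1.39). The other 3 probes lay between -0.47 (Mrgprf, of the same family) and 0.077 (the other probe of Mrgprd). In the third, chr10:126411232-126458048 (5 probes, -0.86), Avil (-1.53), Mettl1 (-1.54) and a probe with no gene name (-1.45) were low. Tsfm was at 0.24 there and Cyp27b1, which makes the active form of vitamin D, at -0.043.

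The lowest regions of Spon3F were pairs and triplets of probes. They were Vill and Plcd1 on chromosome 9 (-2.67), Gpr142 and Gprc5c on chromosome 11 (-2.52), 4931408A02Rik and 1110004E09Rik on chromosome 16 (-2.29), Mbc2 on chromosome 10 (-2.20) and Acvr1b, an activin receptor, with Grasp on chromosome 15 (-2.01). The mean of -2.67 at Vill and Plcd1 is a tumor to liver signal ratio of 0.157-fold. Whether it reflects copy number was not tested. The Vill and Plcd1 pair (chr9:118917110-118923423) was called amplified in Spon2M (1.54) and averaged -0.84 in Spon1M. It averaged 0.75 in both PHx4M and Spon4F, and between -0.29 and 0.44 in the remaining tumors. The pair of probes in Usp10, a deubiquitinase (chr8:122833023-122842207), was called deleted in Spon1M (-1.54) and Spon3F (-1.06) and amplified in Spon2M (1.52). The other 3 spontaneous tumors lay between -0.053 and 0.24 at Usp10.

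These 3 arrays shared their far probes. Member probes with a log2 ratio 1 or more from 0 numbered 49 in Spon1M, all low, 53 in Spon2M, all high, and 161 in Spon3F, all low. In the other 9 tumors such probes, high and low together, numbered 0 (PHx6F and Spon4F) to 12 (PHx1M) per array. These were 1.78%, 1.93% and 5.90% of the member probes in Spon1M, Spon2M and Spon3F against 1.52%, 1.35% and 3.76% of autosomal probes. At 42 probes both Spon1M and Spon2M passed the limit, and at all 42 Spon1M was low and Spon2M high. Of the 49 low probes of Spon1M, 44 were low in Spon3F as well. Of the 161 low probes of Spon3F, 109 were within 1 of 0 in each of the other 11 tumors.

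At the 49 low probes of Spon1M the median was -1.83 in Spon1M, 2.0 in Spon2M and -2.18 in Spon3F, and between -0.046 and 0.18 in the other 9 tumors. They were spread over 10 of the 12 windows, with the most (11) on chromosome 11, which also held the most probes (365). Over all member probes Pearson's r was -0.50 between Spon1M and Spon2M, 0.59 between Spon1M and Spon3F and -0.30 between Spon2M and Spon3F. Spearman's rho was 0.18, 0.43 and 0.38 for the same pairs, so the negative r rested on the far probes. Over all autosomal probes r was -0.12 between Spon1M and Spon2M. The 3 arrays lay on 1 slide with Spon4F, which had 0 such probes. Its median at the 49 low probes of Spon1M was 0.18, the highest of the other 9 tumors. What set these probes apart was not tested, and neither was whether the tumor and liver DNA on these 3 arrays came from the mice that the labels name. Every ratio of Spon1M, Spon2M and Spon3F rests on that labelling.

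**Figure D4:**
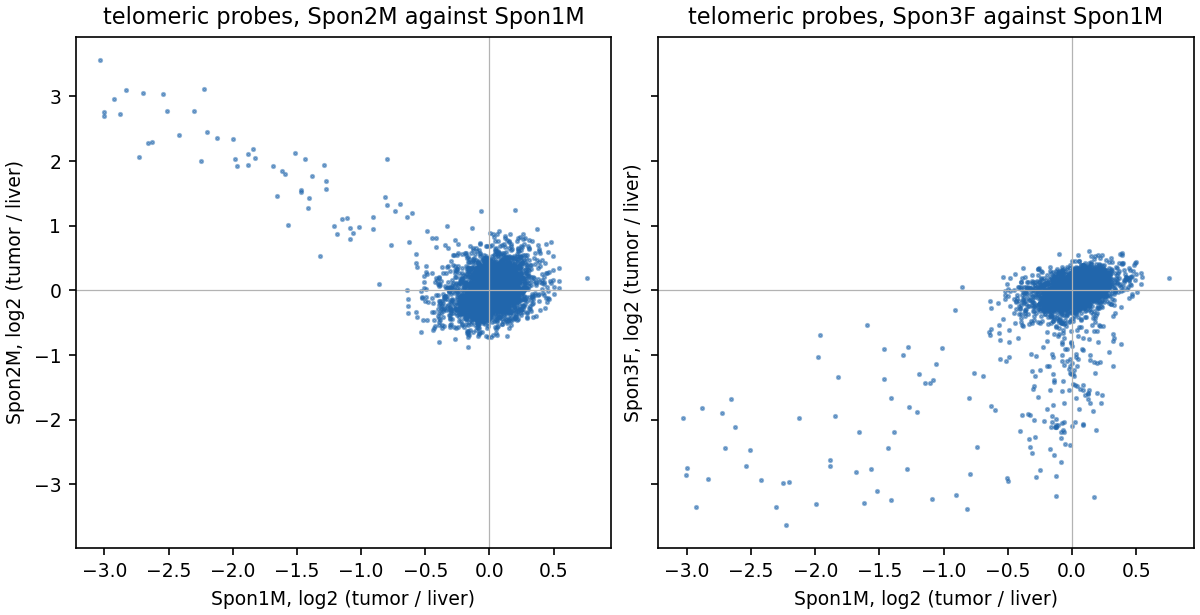
Log2 tumor/liver ratio of each member probe in Spon2M (left) and Spon3F (right) against Spon1M; each point is 1 probe. Most probes gather around 0, and those low in Spon1M are high in Spon2M (42 probes past 1 in both) and mostly low in Spon3F (44 of 49), while a further column of probes is low in Spon3F with Spon1M near 0.

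The number of probes in a window moved with the level of Spon3F. Over 246 autosomal windows its mean ratio fell with the number of probes (Spearman's rho -0.45), and over the 12 telomeric windows rho was -0.81. In the other 11 tumors rho over the 246 windows lay between -0.078 and 0.38, and over the 12 telomeric windows between -0.48 (PHx2F) and 0.82 (PHx6F), so a rho far from 0 over these 12 was not particular to Spon3F. The chromosome 11 window, the most densely covered with 365 probes, was also its lowest, at -0.24, and 9.04% of its probes were at -1 or lower. The part of probe density in the level of Spon3F was not tested.

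For the gene test, probes of 1 gene were averaged, and 1325 of the 19778 genes tested lay in the telomeric windows. Between the groups 0 genes passed limma's adjusted threshold (0% of all genes, lowest adjusted p of a member gene 0.99). At an unadjusted p under 0.05 there were 27 member genes, 2.04% against a background of 4.22%. Against 0, 47 member genes passed in post-PHx tumors (3.55%; 32 higher and 15 lower, against a background of 2.8% in all, 1.6% higher and 1.2% lower) and 80 in spontaneous tumors (6.04%; 62 higher and 18 lower, against 4.33% in all, 2.16% higher and 2.17% lower). Of these, 32 genes were called in both groups, 68.1% of the post-PHx list and 40.0% of the spontaneous list, and all 32 had the same sign in both. No share over all genes stands beside this overlap, so whether it is particular to the member genes was not tested. The counts were not stable: leaving out any 1 post-PHx tumor left 9 to 24, leaving out any 1 spontaneous tumor left 24 to 55, the spontaneous count was 12 without Spon1M, Spon2M and Spon3F, and normexp background correction gave 265 and 300.

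Several genes past the threshold against 0 had ratios well beyond those of their neighbors. Irf8, a transcription factor of the myeloid lineage, ran from 0.20 through a median of 0.27 to 0.31 in post-PHx tumors and from 0.19 through 0.34 to 0.41 in spontaneous tumors, above 0 in all 12 (limma adjusted p 0.0095 and 0.0032). The other probes within 500 kb of it averaged 0.088 and 0.054. Foxf1a, a forkhead factor of mesenchyme, ran from 0.34 through 0.66 to 0.80 and from 0.046 through 0.29 to 0.55 (adjusted p 0.0055 and 0.048, limma), beside 0.048 and 0.067 for its surroundings. Cdkn1c ran from -0.48 through -0.44 to -0.26 and from -0.43 through -0.25 to -0.12, below 0 in all 12, beside -0.023 and -0.021 for its surroundings (adjusted limma p 0.0040 and 0.012). Foxf1a and Cdkn1c have 1 probe each. No array had the dyes swapped, so a ratio that all tumors share and a dye effect of the probe cannot be told apart.

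Arrays of 1 slide were more alike in these probes than arrays of different slides. Over the member probes of the 9 arrays other than Spon1M, Spon2M and Spon3F, the 12 pairs on 1 slide had a median r of 0.39 and the 24 pairs on different slides a median of 0.24. The highest r, 0.71, joined PHx6F and Spon5F, tumors of different groups on the second slide. PHx6F and Spon6F, also on that slide, had r of 0.62. The 3 member genes with the largest difference below 0 were Dscr3, Krtap15 and AK003565, all on chromosome 16. Dscr3, which takes part in endosomal sorting, was at -0.55, -0.96, -0.26 and -0.40 in PHx1M to PHx4M, the first slide, and at -0.078 and -0.074 in PHx5M and PHx6F, the second. It lay between -0.17 and 0.13 in spontaneous tumors, and the low values were those of the first slide (difference -0.45, unadjusted limma p 0.0048). For Krtap15, a hair keratin-associated protein, the difference was -0.24, and for AK003565 it was -0.21.

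Large differences above 0 came from single tumors. Il23a, a subunit of interleukin 23, was at 1.61 in PHx1M and between -0.050 and 0.31 in the other 5 post-PHx tumors (difference 0.54). Gpr142, a receptor for aromatic amino acids, differed by 0.51. It was at -3.19 in Spon3F and between -0.30 and 0.63 in the other spontaneous tumors. Both genes have 1 probe.

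Genes of 4 lists were followed by name, and 47 of the 52 genes reported here had a member probe. Between the groups 0 of the 47 passed (lowest adjusted limma p 0.99), and 39 stayed within 0.5 of 0 in all 12 tumors. Against 0, 3 of the 47 passed in post-PHx tumors, all lower (background 2.8% in all, 1.2% lower), and 5 in spontaneous tumors, 1 higher and 4 lower (background 4.33% in all, 2.16% higher and 2.17% lower). The 6 genes on the same side of 0 in all 12 tumors were Cdkn1c, Gli1, Gys2 and Socs3 (below) and Erg and Tgfbr2 (above). No share over all genes stands beside the counts within 0.5 or on 1 side of 0, here or for single lists below. They describe the listed genes only. The median difference between groups over the 47 was -0.014, beside -0.0043 over all member genes and 0.012 over all genes tested. The cell cycle and cell survival list had 9 genes measured of 11, the oncogene, growth factor and receptor list 22 of 23, the DNA mismatch and break repair list 5 of 6 and the liver metabolism and hormone signalling list 11 of 12.

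**Figure D5:**
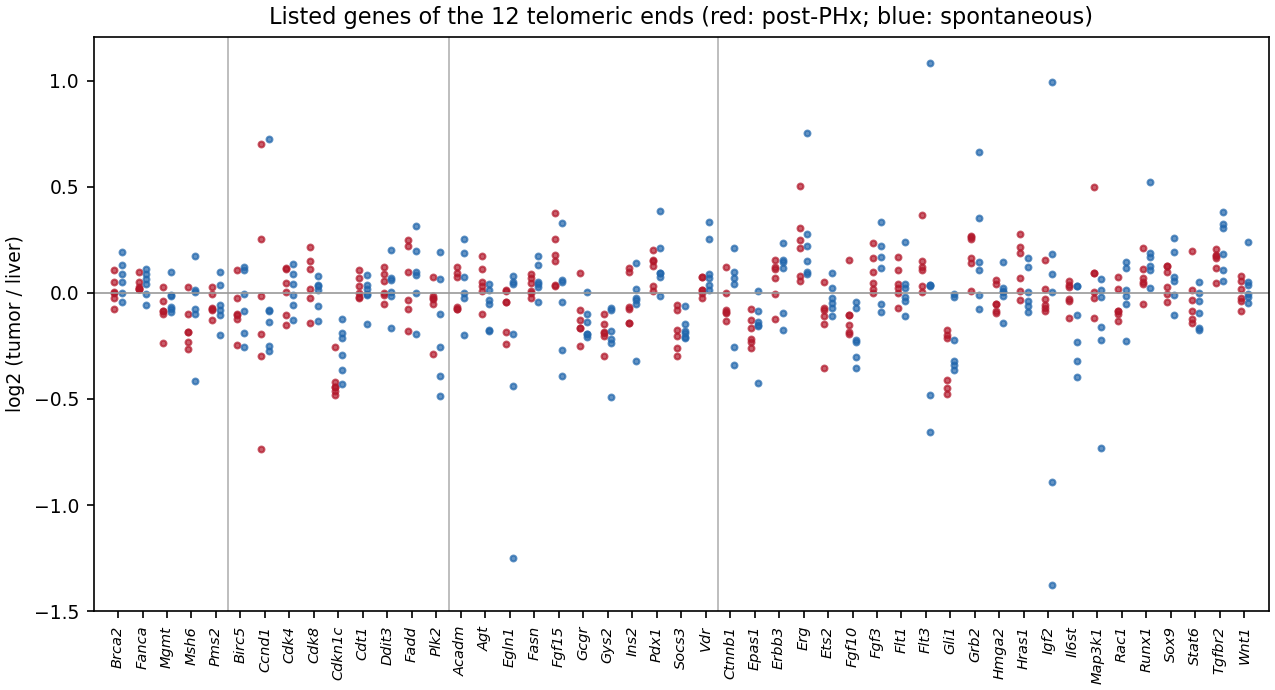
Log2 tumor/liver ratio of 47 listed genes in each tumor, 1 point per tumor (post-PHx left of centre in red, spontaneous right of centre in blue), with vertical lines between the lists. Most genes lie within 0.5 of 0 in all tumors; Igf2 (-1.38 to 0.99), Flt3 (up to 1.08) and Egln1 (down to -1.25) have single spontaneous tumors far from 0.

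Of the cell cycle and survival genes, Cdkn1c, an imprinted inhibitor of cyclin-dependent kinases, was the 1 gene that passed against 0, as above, in both groups. Ccnd1, which encodes cyclin D1 and lies 0.39 Mb from the last probe of chromosome 7, ran from -0.74 (PHx3M) to 0.70 (PHx1M) in post-PHx tumors with a median of -0.11. In spontaneous tumors Spon2M was at 0.72 and the other 5 lay between -0.27 and -0.079. It rests on 1 probe. Its neighbor Fgf3, 0.48 Mb from the last probe, ran from -0.00090 to 0.23 in post-PHx tumors. Cdk4, the kinase partner of cyclin D1, stayed between -0.15 and 0.13 over all 12 tumors. Cdt1, which licenses replication origins, stayed between -0.15 and 0.11. Of the 9 genes, 8 stayed within 0.5 of 0 in every tumor. Birc5, the survivin gene, had medians of -0.10 and -0.045, Fadd, an adaptor of death receptors, of 0.031 and 0.090, and Ddit3, a stress-induced transcription factor, of 0.028 and 0.032. Plk2, a polo-like kinase, had medians of -0.028 and -0.18, and Cdk8, a Mediator kinase, of 0.064 and 0.023.

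Of the oncogene, growth factor and receptor list, Gli1, a Hedgehog pathway transcription factor, passed below 0 in post-PHx tumors (-0.48 through -0.31 to -0.18, adjusted limma p 0.021) and had a median of -0.27 in spontaneous tumors (adjusted p 0.066). Tgfbr2, a receptor for TGF-beta, passed above 0 in spontaneous tumors (0.057 through 0.24 to 0.38, adjusted limma p 0.023) and had a median of 0.17 in post-PHx tumors. Fgf10, a growth factor of epithelial budding, passed below 0 in spontaneous tumors (-0.36 through -0.23 to -0.045, adjusted limma p 0.0496). These were the genes of the list that passed. Ctnnb1, which encodes beta-catenin, had a median of -0.087 in post-PHx and 0.056 in spontaneous tumors, with a range of -0.34 to 0.21 over all 12. Hras1 stayed between -0.093 and 0.28, Rac1 between -0.23 and 0.15 and Hmga2, a chromatin protein of fetal tissue, between -0.14 and 0.15. The receptors Erbb3, Flt1 and Il6st had post-PHx medians of 0.090, 0.033 and -0.00098 and spontaneous medians of 0.13, 0.0020 and -0.17.

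The signalling and transcription factor genes of the same list gave similar ranges. Stat6 had medians of -0.060 and -0.066, Sox9 of 0.064 and 0.067, Wnt1 of -0.0042 and 0.016 and Epas1, a hypoxia-induced factor, of -0.19 and -0.14 in post-PHx and spontaneous tumors. The chromosome 16 genes Erg, Ets2 and Runx1 had medians of 0.23, -0.097 and 0.061 in post-PHx and 0.18, -0.037 and 0.15 in spontaneous tumors; in Spon2M, whose chromosome 16 end stood at 0.32, Erg was at 0.75 and Runx1 at 0.52. Grb2, an adaptor of receptor kinases, had medians of 0.21 and 0.12. Map3k1, a kinase upstream of JNK, ran up to 0.50 in PHx1M and down to -0.73 in Spon3F. Igf2, a fetal growth factor of the liver, was at -1.38 in Spon1M, 0.99 in Spon2M and -0.89 in Spon3F and between -0.084 and 0.18 in the other 9 tumors. Flt3 was at -0.66, 1.08 and -0.48 in the same 3 and between 0.0041 and 0.37 in the others. At both genes Spon1M and Spon3F were low and Spon2M high, the same 3 arrays and signs as at the far probes described above.

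Of the DNA repair genes 0 passed against 0, and all 5 stayed within 0.5 of 0 in every tumor. Msh6, which takes part in mismatch recognition, had medians of -0.19 in post-PHx and -0.038 in spontaneous tumors. Pms2, which acts later in mismatch repair, had medians of -0.075 and -0.069. Brca2, a mediator of homologous recombination 1.1 Mb from the last probe of chromosome 5, had medians of 0.0031 and 0.070, Fanca of the Fanconi anemia core complex of 0.024 and 0.053, and Mgmt, which removes alkyl groups from guanine, of -0.085 and -0.043.

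Of the liver metabolism and hormone genes, Socs3, the feedback inhibitor of interleukin 6 signalling, passed below 0 in both groups, from -0.30 through -0.19 to -0.055 in post-PHx and from -0.22 through -0.18 to -0.063 in spontaneous tumors (limma adjusted p 0.037 and 0.040). Gys2, the liver glycogen synthase, passed below 0 in spontaneous tumors (-0.49 through -0.20 to -0.072, limma adjusted p 0.039) and had a median of -0.19 in post-PHx tumors. The other genes of the list did not pass. Fgf15, the intestinal hormone that restrains bile acid synthesis, had medians of 0.16 and 0.0024. Fasn, the fatty acid synthase, stayed between -0.042 and 0.17 over all 12 tumors, and Acadm, which begins the breakdown of medium-chain fatty acids, between -0.20 and 0.25. Agt, the angiotensinogen gene, had medians of 0.042 and -0.043, Vdr, the vitamin D receptor, of 0.013 and 0.079, Gcgr, the glucagon receptor, of -0.15 and -0.16, Ins2 of -0.071 and -0.028 and Pdx1 of 0.14 and 0.093. Egln1, the oxygen-sensing prolyl hydroxylase, was at -1.25 in Spon3F and between -0.44 and 0.081 in the other 11.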

How the data were processed

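DNA of 12 liver tumors and of matched distant non-tumor liver was cut with AluI and RsaI, labelled and hybridized by the authors to Agilent 4 x 44K mouse CGH arrays. The deposited files are the scanner output of Feature Extraction 10.5.1.1, which subtracted background and normalized the dyes. Per the file headers, the LogRatio column is the log10 of red over green and each channel has an intensity after background subtraction and dye normalization; the ratio of the processed signals matched LogRatio within 0.001 for at least 99.7% of spots. Other deposited columns used were outlier flags, probe names and mm8 positions; 169 spots per array had no position.

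Log ratios were converted to log2, flagged spots (108 to 1218 per array) were dropped, each probe took the mean of its spots, and the autosomal median of an array was set to 0. Windows of 10 Mb were counted from the last probe, with at least 10 probes. Precision is limited by the number of arrays and of probes per window. Groups came from the sample labels, which do not state whether a mouse gave more than 1 tumor. The study's legend to its aberration maps counts as many mice as tumors in each group. The p-values measure only the spread between these tumors. Levels were tested by exact permutation over 924 splits and exact sign-flips (64), two-sided, and windows and genes by limma 3.58.1 in R 4.3.3 with Benjamini-Hochberg adjustment over all windows or genes and a threshold of 0.05. Regions were called with weights from the inverse squared error of the log ratio. The test and the caller were tested on simulated data. Named genes were all listed genes with a member probe, the 3 member genes with the largest group difference in each direction, and each tumor's farthest window; Irf8, Foxf1a and the genes of the called regions were named after their values were seen. Results for 3 genes of this rule are not reported here. The chromosomes, genes and lists were chosen with earlier results of these data known. Alternatives changed the background correction (normexp, offset 50), centring, probe filters and averaging, window size, calling thresholds, tumors and covariates. Gene names are those of the array's design. No probe sequence is printed because the files used here give none.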

Additional observations from a re-analysis of the deposited data

Results flagged for a closer look

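Of 146 sets of 6 tumors examined (levels, windows and named genes in each group), 14 held 1 tumor that stood far from the other 5 by Dixon's test. Chance gives about 1 in 20, but 22 of the sets were of genes named for their values. Of the 14, 4 came from these (Krtap15, Il23a, Dscr3 and Gpr142). In Krtap15, Il23a and Gpr142 the far tumor widened the group difference, and in Dscr3 it narrowed it. The total thus cannot be set against that rate. Over the levels, windows and listed genes it was 10 of 124. Among post-PHx tumors these were Cdkn1c in PHx6F (-0.26, others -0.48 to -0.42), Fgf10 in PHx1M (0.16, others -0.19 to -0.11), Map3k1 in PHx1M (0.50, others -0.12 to 0.094), Plk2 in PHx6F (-0.29, others -0.054 to 0.076), Krtap15 in PHx1M (-0.36, others -0.039 to 0.068) and Il23a in PHx1M (1.61, others -0.050 to 0.31). PHx1M, with 4 of the 14, also had the lowest signal over background of the 12 arrays.

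Among spontaneous tumors the chromosome 13 end of Spon1M stood apart (-0.32, others -0.10 to -0.0031). So did Ccnd1 (0.72, others -0.27 to -0.079), Erg (0.75, others 0.089 to 0.28) and Runx1 (0.52, others 0.021 to 0.19) in Spon2M, and Map3k1 (-0.73, others -0.22 to 0.066) and Gpr142 (-3.19, others -0.30 to 0.63) in Spon3F. The remaining ones were Wnt1 in Spon4F (0.24, others -0.050 to 0.052) and Dscr3 in Spon6F (-0.17, others 0.081 to 0.13).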

How the results depend on the processing

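Across 322 alternatives to 17 results, 280 kept direction and side of the threshold, 26 turned the sign of a mean close to 0, 2 passed the threshold newly and 14 moved a count of genes by over 1.5 times; causes were not tested. The post-PHx level turned to -0.0035 with normexp and -0.0021 in females alone. The spontaneous level turned to 0.00078 with no centring, 0.014 with the median of probes, 0.0032 with error weights and 0.024 without spontaneous replicates 1, 2 and 3, and ran from -0.012 to 0.014 leaving out 1 tumor. The difference in level turned to -0.0095 with the median of probes, -0.017 without those 3 and -0.015 within the slide holding both groups, and ran from -0.0069 to 0.018 leaving out 1 tumor. Telomeric minus remaining level turned to 0.0010 (post-PHx) and 0.0029 (spontaneous) with the median of probes, and in spontaneous tumors to 0.012 without those 3 and 0.0012 in females alone; leaving out 1 tumor gave -0.010 to 0.0030. Its group difference turned to 0.00043 with 5 Mb windows, was -0.020 without those 3 and ran from -0.011 to 0.0020 leaving out 1 tumor. Telomeric minus centromeric level of spontaneous tumors turned to 0.039 without those 3 and 0.011 in females alone, and ran from -0.023 to 0.014 leaving out 1 tumor; its group difference was -0.16 without those 3 and otherwise ran from -0.13 to -0.058 leaving out 1 tumor (exact permutation p from 0.032 to 0.21). Member genes past the threshold numbered 265 (post-PHx) and 300 (spontaneous) with normexp, 12 (spontaneous) without those 3, and 9 to 24 and 24 to 55 leaving out 1 tumor.

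The number of telomeric windows past the threshold was 0 under every alternative run, with normexp, sex and the slide block among them; at an unadjusted limma p under 0.05 at most 4 of 12 passed. The methods' t-test, run between the groups only, gave 0 before and after adjustment. Tumors of both groups carry the numbers 1 to 6, but the labels do not tie them: deviations of same-numbered tumors correlated from -0.19 to 0.42, and 1 of 6 post-PHx tumors was most like its own number. With the replicate block the group differences were 0.011 (level), -0.0027 (against the remainder) and -0.11 (against the centromeric end, exact sign-flip p = 0.094), 0 windows and 0 genes passed, and the differences in windows with an amplified or deleted region were -0.33 and -1.5. Signal over background in green was lowest on the slide of PHx1M to PHx4M (3.96 to 6.75 times), while the spread between neighboring probes was widest in Spon2M (SD 0.26) and Spon5F (0.22).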
